A study of Mus musculus with 21 samples.

Results

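The regions described here are the DNase I hypersensitive sites (DHS) that 2 neighbouring stages of early lymphoid development have in common, compared by signal height, and the strong sites found at one of the stages only. The stages are the all-lymphoid progenitor (ALP) and the early innate lymphoid progenitor (EILP) of mouse bone marrow. The peak lists of both stages were merged on chromosomes 1 to 19 and X wherever peaks shared at least 1 bp, which gave 85510 regions. Of these, 49820 held a peak of both lists and are called shared. A further 455 strong regions were in the EILP list only and 420 in the ALP list only, where strong means a summit height of at least 20 tags. In all 50695 regions are described, against 102384 in the merged ALP, EILP and ILCP lists of the whole series.

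The series measured open chromatin by DNase-seq in ALP, EILP and the innate lymphoid cell precursor (ILCP), and binding of TCF1 in EILP by CUT&RUN. ALP and EILP each had 3 DNase-seq libraries of 300 sorted cells from C57BL/6 bone marrow, digested with 0.3 units of DNase I for 5 minutes. Cells of both stages were lineage-negative (Lin-), Kit+ and 2B4+. ALP were taken as a4b7-, Flt3high and IL-7Ra+, and EILP as a4b7+, Tcf7+ and Thy1-. The genotype label was Tcf7EGFP/+ for ALP and Tcf7EGFPnull/+ for EILP, while the file headers named both pooled tag files WT. If the genotype labels hold, every EILP cell carried 1 null allele of Tcf7, and stage and genotype cannot be told apart below. ILCP, used here as a further level, carried the ALP genotype label and were a4b7+, Tcf7+, Thy1+ and IL-7Ra+. The age of the animals is not given in the sources used here.

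DNase I cuts DNA that is not wrapped tightly in nucleosomes, so sites rich in cuts mark active promoters, enhancers and other elements held open by bound proteins. ALP can form all lymphoid lineages. EILP are an early stage on the way to innate lymphoid cells, and they depend on TCF1, an HMG-box transcription factor encoded by Tcf7. Positions refer to mouse build mm9. Neither genes nor genome sequence of that build were used here, so each region goes by its position. For the same reason the identity of the sorted cells was not checked against marker genes, and no sequence is printed.

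Each stage was deposited as 1 peak list called on its pooled libraries, which leaves the spread between libraries unknown, and no difference was tested. The height of a region was the highest pileup of its peaks in a list, that is the number of tags (extended to 100 bp) over the summit, scaled to 1000000 tags after filtering (RPM). Filtering left 12420429 tags for ALP and 11236009 for EILP. Intervals are exact 95% intervals (Clopper-Pearson), for ratios conditional on the sum of both heights, and they cover counting error only. With 13 tags at both stages, the median height of a peak in either list, the interval of the ratio ran from 0.472 to 2.59, and with 40 tags from 0.695 to 1.76. In pooled cells, a site open in more cells and a site more open in each cell cannot be told apart.

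Most shared regions, 46660 of 49820, differed by less than 2-fold between the stages. The median height was 16 tags in both lists, which is 1.29 RPM in ALP and 1.42 in EILP. The median log2 ratio of EILP over ALP was therefore 0.145, the size of the difference in depth, and every one of the 20 chromosomes had this median. The middle 50% of regions lay between -0.19 and 0.434 and the middle 90% between -0.73 and 0.952. In raw tags, 21997 regions were higher in EILP, 23843 were higher in ALP and 3980 were equal.

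Few regions differed by 2-fold or more, and which direction was more frequent depended on the scaling. Regions past 2-fold are called changed by the ratio alone. Scaled by tags (RPM), 2195 shared regions (4.41%) were at least 2-fold higher in EILP and 965 (1.94%) at least 2-fold lower, so that 69.5% of the changed regions were higher. With the ratios centred on their median, 1213 were higher and 1670 lower, and the higher share of the changed regions was 42.1%. The 2 scalings differ by 0.145 on the log2 scale, and the lists alone do not say which one is right. The classes below use RPM: higher, lower and within 2-fold (46660 regions).

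**Figure D1:**
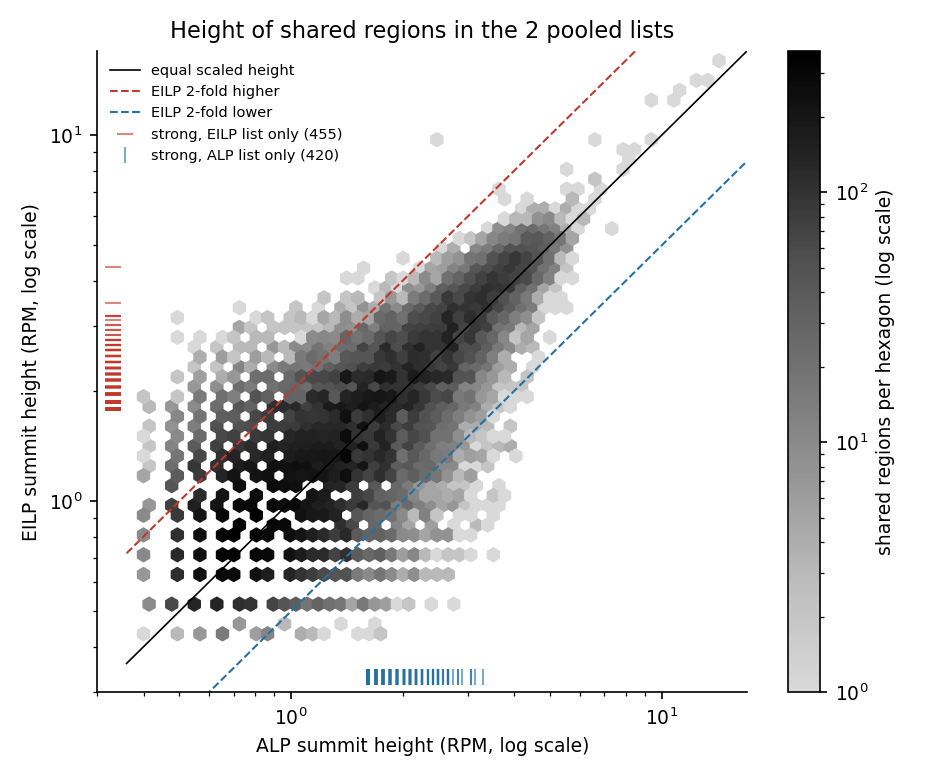
Summit height of 49820 shared regions in ALP (x axis) and EILP (y axis), in RPM on log scales, shaded by the number of regions per hexagon. Most lie along the line of equal height between the dashed 2-fold lines, and ticks at the left and lower edge mark the strong regions of the EILP list only and of the ALP list only at the height they had in their own list.

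Ratios of 2-fold or more were found among regions of low and middle height. Among the 26019 regions with a mean height of 10 to under 20 tags, 6.61% were higher and 2.75% lower. Among 13785 regions of 20 to under 40 tags the shares were 2.09% and 1.73%. Of the 3125 regions of 40 to under 80 tags, 1 was higher and none was lower, and of 16 regions with a mean of 80 tags or more none had changed. The spread narrowed with height as well: the SD of the log2 ratio was 0.575, 0.454 and 0.239 in the first 3 of these classes. Counting error narrows with height too. With equal tags at both stages the interval of the ratio ran from 0.472 to 2.59 at 13 tags. It was 0.564 to 2.16 at 20 tags and 0.695 to 1.76 at 40 tags. Counting error can thus reach 2-fold at 13 tags, and how many of these ratios exceed it was not tested. In the class under 10 tags the shares were 2.69% and 0.145%, but there the lowest height that was called, 5 tags, leaves little room for a 2-fold difference. Height also has an upper limit, because at most 1 tag was kept per position and tags were extended to 100 bp. The tallest peaks had 179 tags in ALP and 180 in EILP. How far this limit narrows the ratios of tall regions was not tested, so their few changes do not show that tall sites are stable.

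**Figure D2:**
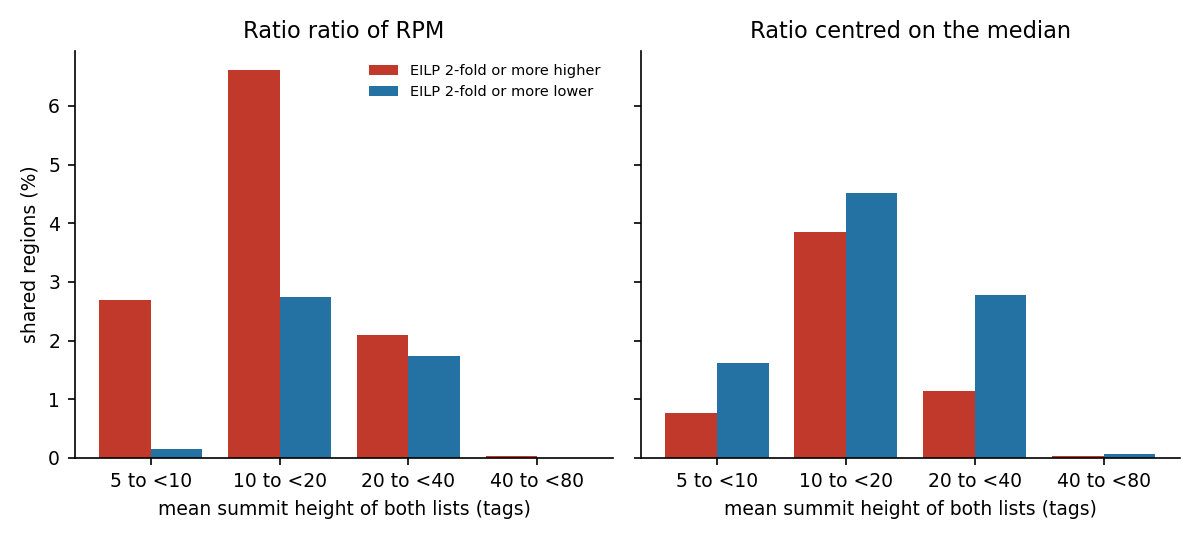
Percent of shared regions at least 2-fold higher (red) or lower (blue) in EILP, by the mean summit height of both lists in tags, for ratios of RPM (left) and for ratios centred on their median (right). The bars of the 10 to under 20 tag class are the tallest in both panels, and the balance of red and blue turns between the panels.

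Peaks also widened and narrowed with their height. In regions made of 1 peak of each list, the median peak width was 215 bp at both stages. Where the region was higher in EILP, the peak measured 161 bp in ALP and 242 bp in EILP, and where it was lower, 283 bp in ALP and 169 bp in EILP. A taller peak stays above the calling threshold over a longer stretch, so the width is not a separate measurement. The summits stayed close, at a median distance of 21 bp in all such regions, 28 bp in the higher and 34 bp in the lower ones. The local background in a 10 kb window moved with the peak it contains. In strong shared regions that were higher in EILP its median was 0.0741 RPM in ALP and 0.109 in EILP, and in those lower in EILP 0.109 and 0.0748.

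The 22122 shared regions with at least 20 tags at one of the stages rest on more tags than the others. As 20 tags are 1.61 RPM in ALP and 1.78 in EILP, this threshold admits regions taller in ALP more readily. By RPM, 1024 of them (4.63%) were at least 2-fold higher in EILP and 652 (2.95%) lower, and after centring 578 and 1029. The interval of the ratio lay wholly above 1 for 817 of the 1024 higher regions and wholly below 1 for 517 of the 652 lower ones. Set against the median ratio instead, these were 554 and 622. The regions were chosen by the same heights that give the intervals, so most were bound to clear 1. These counts are therefore no separate support for a change. Median heights were 11 tags in ALP and 24 in EILP for the higher regions, and 26 and 10 for the lower ones.

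The strong shared regions with the highest ratios went from close to the calling limit in ALP to clear peaks in EILP. These ranks use the ratio itself, so the extreme values are likely to overstate the difference. The region chr7:29478476-29478966 had 6 tags in ALP and 36 in EILP, an RPM ratio of 6.63 (interval 2.77 to 19.3). It overlapped a TCF1 peak and had 54 tags in ILCP. The region chr3:105205637-105205981 had 6 and 32 tags, a ratio of 5.90 (2.43 to 17.2), and the region chr12:29485206-29485695 had 7 and 32 tags, a ratio of 5.05 (2.19 to 13.6). The latter held 2 TCF1 peaks, and in ILCP these 2 regions had 27 and 31 tags. The 3 leading regions thus all stood at 27 tags or more in ILCP.

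The next 5 had between 5 and 7 tags in ALP and between 22 and 29 in EILP. At chr7:122475204-122475539 and at chr17:45463025-45463340 the heights were 5 and 22 tags, a ratio of 4.86 (1.80 to 16.4) in both. They parted in ILCP, where the first had 5 tags and the second 25. The regions chr12:74595018-74595307 and chr17:88830798-88831183 had 6 and 25 tags, a ratio of 4.61 (1.84 to 13.7), with 35 and 25 tags in ILCP. The region chr7:124702570-124702930 had 7 and 29 tags, a ratio of 4.58 (1.96 to 12.4), with 28 in ILCP. Of the 8 regions, 2 overlapped a TCF1 peak and 8 had an ILCP peak. They had between 0 and 16 shared neighbours within 100 kb, too few to set against the 4.41% of all shared regions, and 1 neighbour, of the leading chr7 region, was also 2-fold higher.

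The strong shared regions with the lowest ratios showed the opposite course, from 29 to 44 tags in ALP to 6 to 8 tags in EILP. At chr18:83854162-83854488 there were 44 tags in ALP and 8 in EILP, so ALP was 4.98-fold higher in RPM (interval 2.32 to 12.2). At chr2:172237978-172238296 there were 33 and 6 tags, again 4.98-fold (2.06 to 14.5). Neither had an ILCP peak. The region chr16:10806228-10806557 had 34 and 7 tags, 4.39-fold higher in ALP (1.92 to 11.7), and 6 tags in ILCP. The region chr19:42799583-42799893 had the same heights and ratio but 20 tags in ILCP, so its low level was found in EILP.

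The remaining 4 had no TCF1 peak either. At chr14:20616134-20616486 the heights were 29 and 6 tags, 4.37-fold higher in ALP (1.78 to 12.9). At chr9:40439211-40439584 they were 38 and 8 tags, 4.30-fold (1.97 to 10.7), and at chr11:68013374-68013717 33 and 7 tags, 4.26-fold (1.86 to 11.4). These 3 had no ILCP peak. At chr2:172642570-172642885 the heights were 36 and 8 tags, 4.07-fold (1.86 to 10.1), with 9 tags in ILCP. Of the 8, the chr19 region alone reached 20 tags in ILCP. Of the 8 regions, 3 had an ILCP peak and none overlapped a TCF1 peak.

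Strong regions were rarely missing from the other list, whereas regions of one list were common at lower heights. At all heights, 19683 of the 85510 merged regions were in the EILP list only and 16007 in the ALP list only. Their median height was 9 tags in either list. Of 17905 EILP regions with 20 tags or more, 455 had no ALP peak (2.54%), and of 18580 such ALP regions 420 had no EILP peak (2.26%). Because 20 tags are 1.61 RPM in ALP and 1.78 in EILP, the threshold was lower for ALP. With 1.7 RPM in both lists, 455 EILP-only and 251 ALP-only regions were strong. Of the regions with 20 tags or more, most were just past the threshold: 351 of the EILP-only and 301 of the ALP-only regions had 20 to 24 tags, and 22 and 35 had 30 or more. Just inside it, at 20 tags, were 109 EILP-only and 105 ALP-only regions with a median fold enrichment of 8.47 and 7.37. Just outside it, at 19 tags, were 145 and 131 regions with 8.70 and 7.25, where the fold enrichment is the authors' value for each peak. Absence means less than a called peak and not zero signal. At local backgrounds under 1 tag the lowest height called was 5 tags in both lists, at 1 to 2 tags it was 6, and above 4 tags it was 15 in ALP and 14 in EILP.

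The EILP-only regions were sites that were mostly still found in ILCP. The one with most tags was chr11:3081267-3081595 with 49, but its local background was 8.46 tags. In the following the background lay between 1.26 and 2.26 tags. The region chr6:50366790-50367242 had 39 tags in EILP and 41 in ILCP. The regions chr11:58103847-58104122, chr4:107393294-107393670 and chr6:31035233-31035635 each had 36 tags in EILP, and 29, 28 and 32 in ILCP. The regions chr8:87437118-87437330 and chr16:45025509-45025897 had 35 and 34 tags in EILP and 28 and 33 in ILCP. Thus each of these 6 stood at 28 tags or more at both later stages with no peak in ALP, and 3 of them (chr6:31035233-31035635 and those on chromosomes 8 and 16) overlapped a TCF1 peak. The last of the 8, chr11:3056984-3057173, had 34 tags over a background of 14.7 and no ILCP peak.

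The ALP-only regions were mostly not found again in ILCP. The highest were chr4:62416373-62416879 with 41 tags and chr5:118926602-118927002 with 39. The regions chr12:114641047-114641400 and chr5:36720751-36721134 had 38 tags each, chr5:107441096-107441358 had 36 and chr7:106508579-106508947 had 34. None of these 6 had a peak in EILP or ILCP, and their local backgrounds were 1.47 to 4.22 tags. The remaining regions, chr19:17725292-17725638 and chr15:78424604-78424805, had 35 tags each in ALP and 6 and 12 in ILCP. No TCF1 peak overlapped any of the 8.

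A stretch at the start of chromosome 11 stood apart by its background. It held 4 EILP-only strong regions between positions 3056984 and 3102421, the largest such group, with 34, 27, 49 and 23 tags over a median background of 8.79, and 1 of the 4 had an ILCP peak. Close by were 1 ALP-only strong region, chr11:3047514-3047681, with 25 tags over a background of 10.9, and a shared region, chr11:3057441-3058042, with 30 (ALP), 111 (EILP) and 75 (ILCP) tags. The last was the 1 region with a mean of 40 tags or more that was 2-fold higher (ratio 4.09, interval 2.71 to 6.34) and was singled out after its value was seen. Backgrounds above 5 tags were found at 71 shared regions, 7 EILP-only and 4 ALP-only strong regions. Without them the counts were 2193 higher, 965 lower, 448 EILP-only and 416 ALP-only.

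Most strong one-list regions had no other of the same direction within 100 kb. Whether they lay closer together than other strong regions was not tested. Joined where they lay within 100 kb of each other, the 455 EILP-only regions formed 416 loci, of which 381 held a single region, and the 420 ALP-only regions formed 389 loci, of which 361 held a single region. Apart from the chromosome 11 stretch, the EILP-only loci with most regions held 3. One lay at chr9:63567765-63588678 with 20, 29 and 27 tags in EILP and 28, 38 and 24 in ILCP, and its middle region overlapped a TCF1 peak. The other lay at chr6:86346549-86447845 with 20, 21 and 20 tags in EILP and 22, 17 and 21 in ILCP. In both, all members were thus present at both later stages. Of the loci with 2 regions, the highest were chr19:46694439-46716568 with 33 and 25 tags and chr8:122895643-122902079 with 31 and 26. Both regions of the chr8 locus, and neither of the chr19 locus, overlapped a TCF1 peak.

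Among ALP-only loci 3 held 3 regions each. At chr11:68877012-68936407 the heights were 23, 27 and 22 tags, and 2 of these regions had peaks again in ILCP, with 32 and 17 tags. At chr16:10999982-11072302 they were 27, 20 and 23 tags, with 9 tags at the first in ILCP. At chr10:80789734-80897029 they were 23, 26 and 20 tags, with 19 tags at the last in ILCP. The highest loci of 2 were chr5:36704467-36721134 with 22 and 38 tags and no ILCP peak, and chr4:10846297-10902119 with 29 and 27 tags. None of the members of these 5 loci overlapped a TCF1 peak. Among shared regions within 100 kb, 2 of 36 were 2-fold higher and 1 lower around the chr11 locus, and none of 45 around the chr10 locus and none of 19 around the chr16 locus was either. Around the chr5 locus 2 of 16 were lower and none higher, and around the chr4 locus 1 of 12 was higher and none lower. With 4.41% higher and 1.94% lower among all shared regions, these counts are too small to read.

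Within 5 kb of a strong EILP-only region few shared regions were lower, and within 5 kb of an ALP-only region the balance of higher and lower leaned to lower. Of 453 shared regions within 5 kb of an EILP-only region, 18 (3.97%) were 2-fold higher and 2 (0.442%) lower, with the same median as elsewhere, against 4.41% and 1.94% of all shared regions. Of 448 within 5 kb of an ALP-only region, 10 (2.23%) were higher and 15 (3.35%) lower, and their median log2 ratio was 0.029 against 0.145. From 25 to 100 kb the shares were 4.84% and 2.20% around EILP-only regions and 4.62% and 1.88% around ALP-only regions. The counts within 5 kb are small, and all 2-fold counts depend on the scaling given above.

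**Figure D3:**
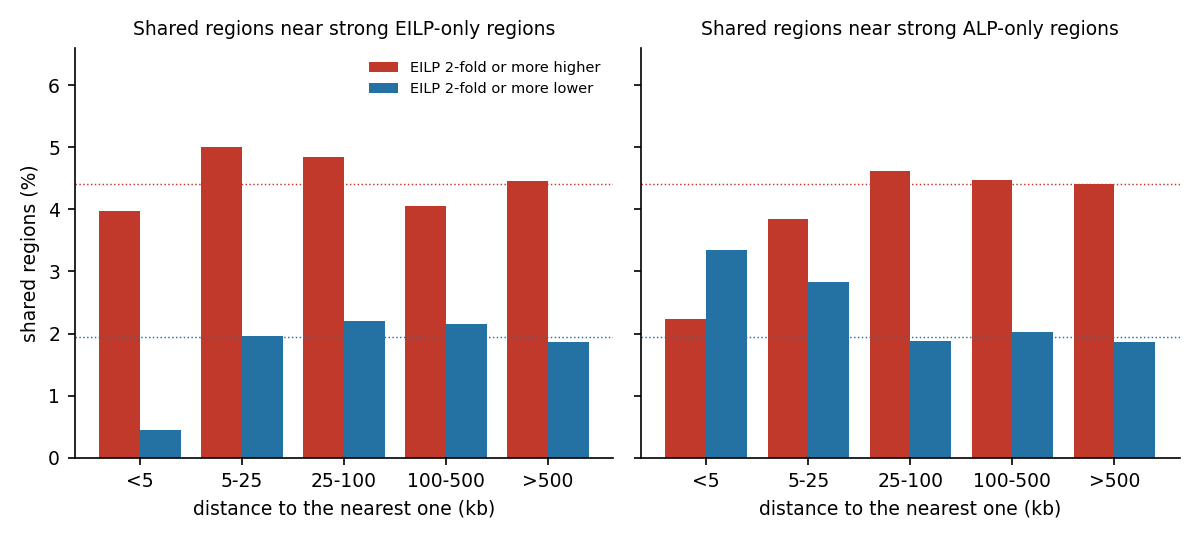
Percent of shared regions at least 2-fold higher (red) or lower (blue) in EILP, by distance in kb to the nearest strong EILP-only region (left) or ALP-only region (right), with dotted lines at the shares among all shared regions. Within 5 kb, blue falls to 0.442% on the left and exceeds red on the right, and beyond 25 kb the bars stay near the dotted lines.

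Over windows of 1 Mb the median ratio varied little. In 1516 windows with 10 or more shared regions, the middle 90% of the medians lay between -0.07 and 0.33. The highest was 0.63, or 1.55-fold, at chr8:118000001-119000000, where 10 of 13 regions had more tags in EILP, 2 were 2-fold higher and none lower. The next were chr3:143000001-144000000 with 0.61, chr14:123000001-124000000 with 0.58, chr15:42000001-43000000 with 0.57 and chr3:85000001-86000000 with 0.54, each with 2 regions 2-fold higher and none lower. The lowest was -0.39 at chr13:111000001-112000000, where 16 of 19 regions had more tags in ALP and the median height went from 19 to 12 tags, although 2 regions were 2-fold higher and 2 lower. At chr8:14000001-15000000 the median was -0.25 and 20 of 23 regions had more tags in ALP, with median heights of 24 and 16, and 3 were 2-fold lower and none higher. It was -0.23 at chr13:102000001-103000000, with 1 region higher and 1 lower. It was -0.22 at chr9:116000001-117000000, with 1 higher and none lower, and at chr13:95000001-96000000, with none higher and 1 lower. These windows are the extremes of 1516, and each rests on 25 or fewer regions.

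TCF1 binding, measured in EILP, was not used to form any of these groups. The TCF1 peaks were low, with a median height of 5 tags and a lowest of 3, from 2418839 tags. Lack of a TCF1 peak therefore does not mean lack of binding. A TCF1 peak overlapped 171 of 2195 regions higher in EILP (7.79%, interval 6.70 to 8.99), 3061 of 46660 within 2-fold (6.56%, 6.34 to 6.79) and 20 of 965 lower regions (2.07%, 1.27 to 3.18). Among strong one-list regions it overlapped 67 of 455 in the EILP list only (14.7%, 11.6 to 18.3) and 5 of 420 in the ALP list only (1.19%, 0.388 to 2.76). From the other side, of the 3252 shared regions with a TCF1 peak 5.26% were higher and 0.615% lower, against 4.35% and 2.03% of the 46568 without one. Regions with a TCF1 peak were taller, with medians of 26 tags in ALP and 27 in EILP against 15 and 15. The median log2 ratio was 0.145 in both sets, and 3061 of the 3252 with a TCF1 peak lay within 2-fold.

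The low TCF1 share of the lower regions moved with their low height in EILP. Among regions under 20 tags in EILP, 1.99% (1.2 to 3.08) of the lower ones and 3.07% (2.87 to 3.27) of those within 2-fold had a TCF1 peak. Among regions with 20 tags or more in EILP, 12.7% (10.7 to 14.9) of the 1024 higher ones and 13% (12.5 to 13.5) of the 16418 within 2-fold had one. The 8 lower regions of that height included 1 with a TCF1 peak. Thus in both height groups the intervals given for changed and unchanged regions overlapped, under 20 tags only narrowly. The groups are broad in height, and regions of pooled lists are not replicates. Overlap therefore does not show that the shares are equal, and the difference was not tested. Across heights the share rose from 2.16% under 15 tags to 5.49% at 15 to 24 tags and 16.7% at 25 tags or more, given for log2 ratios of 0 to 0.5.

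EILP-only regions held a TCF1 peak more often than shared regions of like EILP height. With 20 to 29 tags in EILP, the share was 13.2% (10.1 to 16.7) of 433 EILP-only regions and 8.64% (8.10 to 9.21) of 10067 shared regions. Their intervals do not overlap, though the difference was not tested. The shared regions were wider, with a median of 293 bp against 254 bp. With the EILP peak itself in place of the merged region, the shares were 13.2% and 8.41%.

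**Figure D4:**
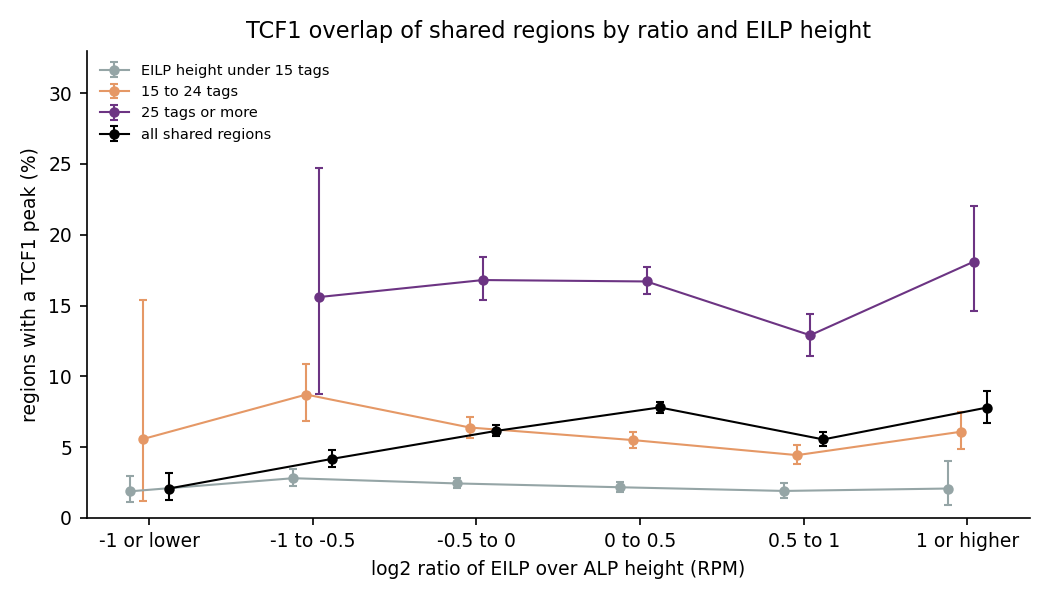
Percent of shared regions that overlap a TCF1 peak, by the log2 ratio of EILP over ALP height, for all shared regions (black) and in 3 classes of EILP height, with exact 95% intervals. The 3 classes lie one above the other at every ratio where they hold regions, and within a class the share does not climb steadily with the ratio. At 15 to 24 tags it is 5.56% at -1 or lower and falls from 8.71% at -1 to -0.5 to 4.43% at 0.5 to 1. At 1 or higher it is 6.08%. At 25 tags or more it is 16.7% at 0 to 0.5, 12.9% at 0.5 to 1 and 18.1% at 1 or higher.

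ILCP levels, from a list that the classes did not use, are given beside those of ALP and EILP for strong regions. Of the 1024 regions higher in EILP, 92.8% (interval 91.0 to 94.3) had an ILCP peak, close to the 94.2% (93.9 to 94.5) of the 20446 within 2-fold. Their median height went from 0.886 to 2.14 RPM between ALP and EILP and was 1.66 RPM in ILCP, over regions with an ILCP peak. Of the 652 regions lower in EILP, 61.3% (57.5 to 65.1) had an ILCP peak, with medians of 2.09, 0.890 and 0.946 RPM in the same order. Regions of either class were thus, at the median, nearer to their EILP than to their ALP level in ILCP. Those within 2-fold stood at 2.09, 2.22 and 2.13 RPM in ALP, EILP and ILCP.

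Among regions with an ILCP peak, the ILCP height was above the geometric mean of the ALP and EILP heights in 66.1% of the 950 higher regions, 42.2% of the 19260 within 2-fold and 22.8% of the 400 lower ones. Higher regions with a TCF1 peak stood further towards EILP. Of 130 such regions 97.7% (93.4 to 99.5) had an ILCP peak, with a median of 2.05 RPM, and of 894 without a TCF1 peak 92.1% (90.1 to 93.7) had one, with a median of 1.58. Their EILP medians also differed, at 2.36 and 2.05. For 84.3% of the first and 63.3% of the second set with an ILCP peak, the ILCP height was above the geometric mean.

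Strong EILP-only and ALP-only regions differed in ILCP. Of the 455 EILP-only regions 400 (87.9%, 84.6 to 90.8) had an ILCP peak, with a median of 1.73 RPM close to the 1.96 RPM in EILP, and 250 had 20 tags or more there. Of the 420 ALP-only regions 147 (35.0%, 30.4 to 39.8) had one, with a median of 1.10 against 1.77 in ALP, and 20 had 20 tags or more. For comparison, 93.2% of the 22122 strong shared regions had an ILCP peak. With 20 to 29 tags in EILP, 94% of 10067 shared regions and 88% of 433 EILP-only regions had one. The EILP-only regions were thus mostly still called in ILCP, though less often than shared regions of like height. Most ALP-only regions were not called again.

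**Figure D5:**
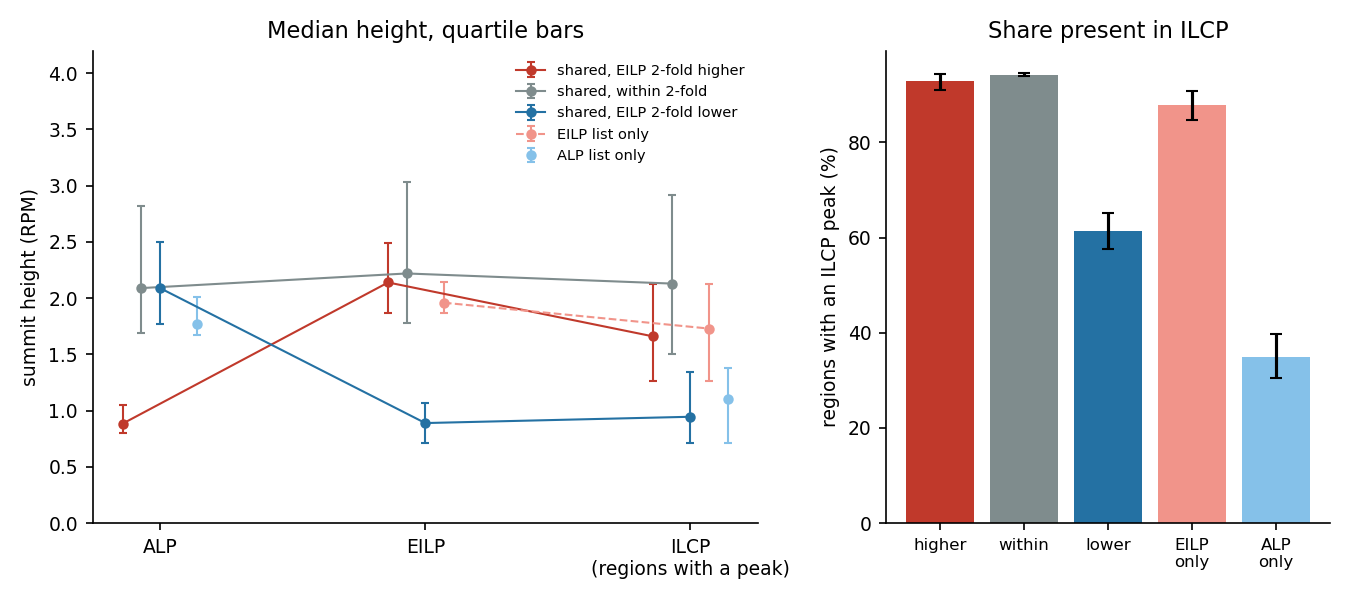
Left, median summit height in RPM in ALP, EILP and ILCP, with bars over the middle 50%, for strong shared regions by class and strong regions of one list; ILCP values are over regions with an ILCP peak. Right, percent of each class with an ILCP peak and exact 95% intervals, where the ALP-only regions are lowest at 35.0% and the EILP-only regions reach 87.9%.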

How the data were processed

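Per the file headers, the authors pooled the 3 DNase-seq libraries of a stage into 1 tag file and ran MACS2 (version 2.1.1.20160309, q threshold 0.05). Tags of 50 bp were moved back by 50 bp and extended to 100 bp, which centres them on the cut, at most 1 tag was kept per position, and background was estimated over 10 kb without a control. Per the submitters' processing notes coordinates are on mm9, and the aligner is not given in the sources used here. The deposited pileup is a signal that counts extended tags over the summit and is not scaled by depth. The deposited fold enrichment was taken as the ratio of pileup plus 1 to local background plus 1, from which the background was worked out. The −log10 q-value, as deposited, served for a stricter TCF1 threshold. The TCF1 list was called against a pooled IgG control, and the labels of 2 CUT&RUN libraries conflict on the antibody, so they were put in no group.

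Depths after filtering were 12420429 tags (ALP), 11236009 (EILP), 12681410 (ILCP) and 2418839 (TCF1). Lists were merged and compared in Python 3.11.15 with numpy 2.4.6, pandas 2.3.3 and scipy 1.17.1, after the functions had been tested on simulated lists. Peaks on the Y chromosome and mitochondrial DNA were left out. The regions and lists were chosen with earlier results of these data known. Named are the 8 strong shared regions with the highest and the 8 with the lowest ratio, the 8 strong one-list regions of each stage with most tags, and per direction the 5 loci with most strong one-list regions (ties by summed height) and the 5 windows with extreme medians. Planned gene lists and sequence motifs were left out for want of mm9 genes and sequence. The alternatives cover scaling, overlap, height thresholds, background, distances and TCF1 and ILCP overlap.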

Additional observations from a re-analysis of the deposited data

Results flagged for a closer look

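Peaks outside the chromosomes compared were present in both lists. The Y chromosome held 42 peaks in the ALP list and 39 in the EILP list, with median heights of 25.5 and 23 tags. Mitochondrial DNA held 8 peaks in the ALP list, of 152 to 200 tags, and 9 in the EILP list, of 143 to 198 tags. They were singled out as signal in data that no comparison used.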

How the results depend on the processing

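No paired analysis was possible because each stage was deposited as 1 pooled list, and for the same reason no library was left out. The main results were recomputed in 112 ways, of which 85 kept the direction and stayed within 1.5 times (counts) or within the counting interval (shares and medians), as did 64 of 64 for the named shared regions. Some of these could not move, such as the number of shared regions under another scaling. For the named regions most alternatives shifted the ratio little beside its wide interval. These tallies are thus a weak check. Centring on the median gave 1213 higher and 1670 lower regions, a difference of -457 where the main one is 1230, and a median of 0. It also gave 87.6% of the higher regions an ILCP peak. With 20 tags or more at one of the stages there were 22122 shared regions, 1024 higher, a difference of 372 and a median of 0.107. That threshold was lower in RPM for ALP. At 1.5-fold there were 8194 higher and 4003 lower regions (difference 4191), and at 3-fold 215 and 104 (difference 111). The median was 0.141 with tags before filtering and 0.141 with background subtracted. Strong ALP-only regions numbered 1729 at 15 tags, 35 at 30 tags and 251 at 1.7 RPM, and EILP-only regions 2022 at 15 and 22 at 30 tags. Joining over 200 kb gave 53 EILP-only loci of several regions instead of 35, and windows of 2 Mb numbered 996. For regions within 2-fold, the TCF1 share was 6.07% with the TCF1 summit inside and 6.03% at a TCF1 q under 0.01, and the ILCP share 79.3% with the ILCP summit inside. Except for the fewer regions that a stricter threshold leaves and the fewer windows that a larger window size leaves, the cause was not tested. Centring for TCF1 and ILCP, the EILP peak itself and the removal of high backgrounds were chosen after seeing the data. Heights of 5 to 10 tags limit every ratio of a weak region.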

Other observations

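Some regions went against their group, and all of these were picked after their values were seen. The 5 ALP-only strong regions with a TCF1 peak in EILP, where they had no DHS peak, were chr12:70968477-70968666 with 33 tags in ALP, chr10:62016641-62016940 with 26, chr2:33725999-33726301 and chr7:73323963-73324384 with 21 each, and chr2:180010611-180010904 with 20. In ILCP the first had 16 tags, the second 9, the fourth 13 and the last 21, and the third had no peak. Among the 20 ALP-only regions that had 20 tags or more in ILCP, the highest there were chr11:68877012-68877170 with 23 tags in ALP and 32 in ILCP, chr17:56429916-56430095 with 25 and 31, and chr14:47878732-47878942 with 20 and 30. These sites were thus called at the first and the third stage and missing from the list in between.

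The 1 Mb windows with the largest numbers of 2-fold higher or lower shared regions held 34 to 93 shared regions each. At chr19:5000001-6000000, 9 of 93 shared regions were 2-fold higher and none lower, at chr3:89000001-90000000 8 of 80 and none, and at chr6:122000001-123000000 7 of 37 and 1. Their median log2 ratios were 0.20, 0.22 and 0.14. At chr4:119000001-120000000, 6 of 44 were lower and 1 higher, at chr2:166000001-167000000 6 of 71 and 2, and at chr3:52000001-53000000 5 of 34 and 1. Their medians were 0.01, 0.00 and -0.08, below the 0.145 of all shared regions, and the last was below the middle 90% of windows, which starts at -0.07. For comparison, 4.41% of all shared regions were higher and 1.94% lower.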
